A study of Arabidopsis thaliana with 6 samples.

Results

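PSBY, PSB27, PSBW, PSAN, PSAE-1, ATPC1, NdhL and NdhN are nuclear genes whose proteins are imported into the chloroplast and work at the thylakoid membrane. They were taken by symbol, with the brightest probe set of each, and the share of each gene's fall in sicy-192 that was regained in sicy-192 gun1-101 was calculated. Each of the 8 symbols had 1 probe set, so 8 of 22746 probe sets, control probe sets left out, and 8 of 13286 named genes are described. By complex, PSBY, PSB27 and PSBW belong to photosystem II, PSAN and PSAE-1 to photosystem I, ATPC1 to the ATP synthase, and NdhL and NdhN to the NADH dehydrogenase-like (NDH) complex.

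Total RNA of Arabidopsis thaliana cotyledons was hybridised to 6 one-colour arrays, 2 each for the double mutant sicy-192 gun1-101, the single mutant sicy-192 and the wild type. All 3 genotypes were in the Col-0 ecotype. All plants were raised for 4 days on medium with 100 mM sucrose, under 16 h of light at 100 µmol per m2 and second and 25 °C, and 8 h of darkness at 22 °C. The name sicy stands for sugar-inducible cotyledon yellow, and sicy-192 carries a gain-of-function change in the plastid invertase INV-E. GUN1 is a plastid-localised pentatricopeptide repeat protein of retrograde signalling. The sucrose medium was common to all groups, sicy-192 is represented by 1 allele, and no gun1-101 single mutant was analysed, so the effect of gun1-101 alone cannot be told apart from its effect in sicy-192. The gene table names no probe set for GUN1 (AT2G31400) or INV-E (AT5G22510), so neither targeted gene could be read on these arrays.

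The light reactions run on complexes assembled from subunits of 2 genomes. Plastid genes encode most of the reaction centre cores, and nuclear genes supply peripheral, docking, regulatory and repair subunits. Photosystem II splits water, photosystem I reduces ferredoxin, the NDH complex returns electrons from ferredoxin to plastoquinone, and the ATP synthase uses the proton gradient. Many nuclear photosynthesis genes are repressed when plastid function is disturbed, and gun mutants were first isolated because such genes stay more active under those conditions.

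The deposited signals are linear intensities on arrays scaled to a trimmed mean of 500. Replicates correlated at r = 0.983 in sicy-192 gun1-101, 0.979 in sicy-192 and 0.980 in wild type over the 14785 probe sets tested. The 3' to 5' signal ratio of the actin control was higher in replicate 1 than in replicate 2 of each genotype, at 6.73 and 4.47 in sicy-192 gun1-101, 6.14 and 4.00 in sicy-192, and 7.18 and 4.86 in wild type. The ratios of the other controls were smaller. For GAPDH they were 1.314 and 1.109, 1.337 and 1.185, and 1.422 and 1.196 in the same order. For ubiquitin they were 1.408 and 1.409, 1.559 and 1.323, and 1.685 and 1.538, so its double mutant replicates did not differ. The bioB spike, a bacterial RNA, divided all arrays by replicate number, since its 3' probe set gave 313 to 391 on the replicate 1 arrays and 51.6 to 68.8 on the replicate 2 arrays. The labels name no batch, but replicate 1 and replicate 2 thus differed technically in every genotype. Values with the replicate number as a block are given where they change a call of the 8 genes. For other listed genes, and for counts over lists, they are given only in part. The signal of the 25S rRNA control was 7778 and 8362 in sicy-192 gun1-101, 1378 and 1173 in sicy-192, and 452 and 1764 in wild type. Of 31 cell type markers listed, only FAMA, a guard cell transcription factor, is named on the array, and none of the 4 mesophyll markers is, so the tissue label could not be checked with markers. The FAMA signal was 75.5 ± 5.06 in sicy-192 gun1-101, 86.3 ± 3.90 in sicy-192 and 152 ± 10.2 in wild type (SD, n = 2 each). It fell in sicy-192 gun1-101 against wild type (limma adjusted p = 0.0154) and in sicy-192 against wild type (adjusted p = 0.0417), and its part in the changes of the 8 genes was not tested.

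All 8 genes had the same order of genotypes, lowest in sicy-192, intermediate in sicy-192 gun1-101 and highest in wild type, with no overlap in signal between the arrays of any pair of groups. The groups were apart in the same direction for 21.1% of all tested probe sets in sicy-192 below wild type, 27.6% in sicy-192 gun1-101 above sicy-192 and 28.9% in sicy-192 gun1-101 below wild type. In the limma fit, 8 of 8 genes fell in sicy-192 against wild type, where 9.21% of tested probe sets were called lower at an adjusted p under 0.05. In sicy-192 gun1-101, 6 of 8 rose against sicy-192 (9.54% of tested probe sets were called higher), and 6 of 8 fell against wild type (12.8% were called lower). With the replicate number as a block, both counts were 8 of 8. Calls in either direction over all 14785 tested probe sets also rose with the block. They went from 3060 to 4917 in sicy-192 gun1-101 against sicy-192 and from 4450 to 6362 in sicy-192 gun1-101 against wild type. Both the fall in sicy-192 and the rise in sicy-192 gun1-101 passed the test for 6 genes, against 4.1% of tested probe sets. The 8 genes were chosen with earlier results of these data known. Their counts are therefore no independent test against the shares over all probe sets. In bulk cotyledons, fewer cells of a type and less RNA per cell cannot be told apart, and with 2 arrays a genotype the p-values measure only the spread between these samples.

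The median change of the 8 genes, on the log2(signal + 16) scale, was -1.68 in sicy-192 against wild type, 0.79 in sicy-192 gun1-101 against sicy-192 and -0.92 in sicy-192 gun1-101 against wild type. Over all tested probe sets the medians were 0.16, -0.05 and 0.07, so relative to them the genes changed by -1.84, 0.84 and -0.99. The balance of calls over all probe sets depended on the scaling. In sicy-192 against wild type, 60.0% of calls were higher, against 48.0% after quantile normalization and 31.3% with each array centred on its median. The same 3 scalings gave 46.1%, 48.1% and 59.7% in sicy-192 gun1-101 against sicy-192, and 57.5%, 49.0% and 45.0% in sicy-192 gun1-101 against wild type. Each of the 8 genes kept its direction in all 3 comparisons under both alternative scalings.

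**Figure D1:**
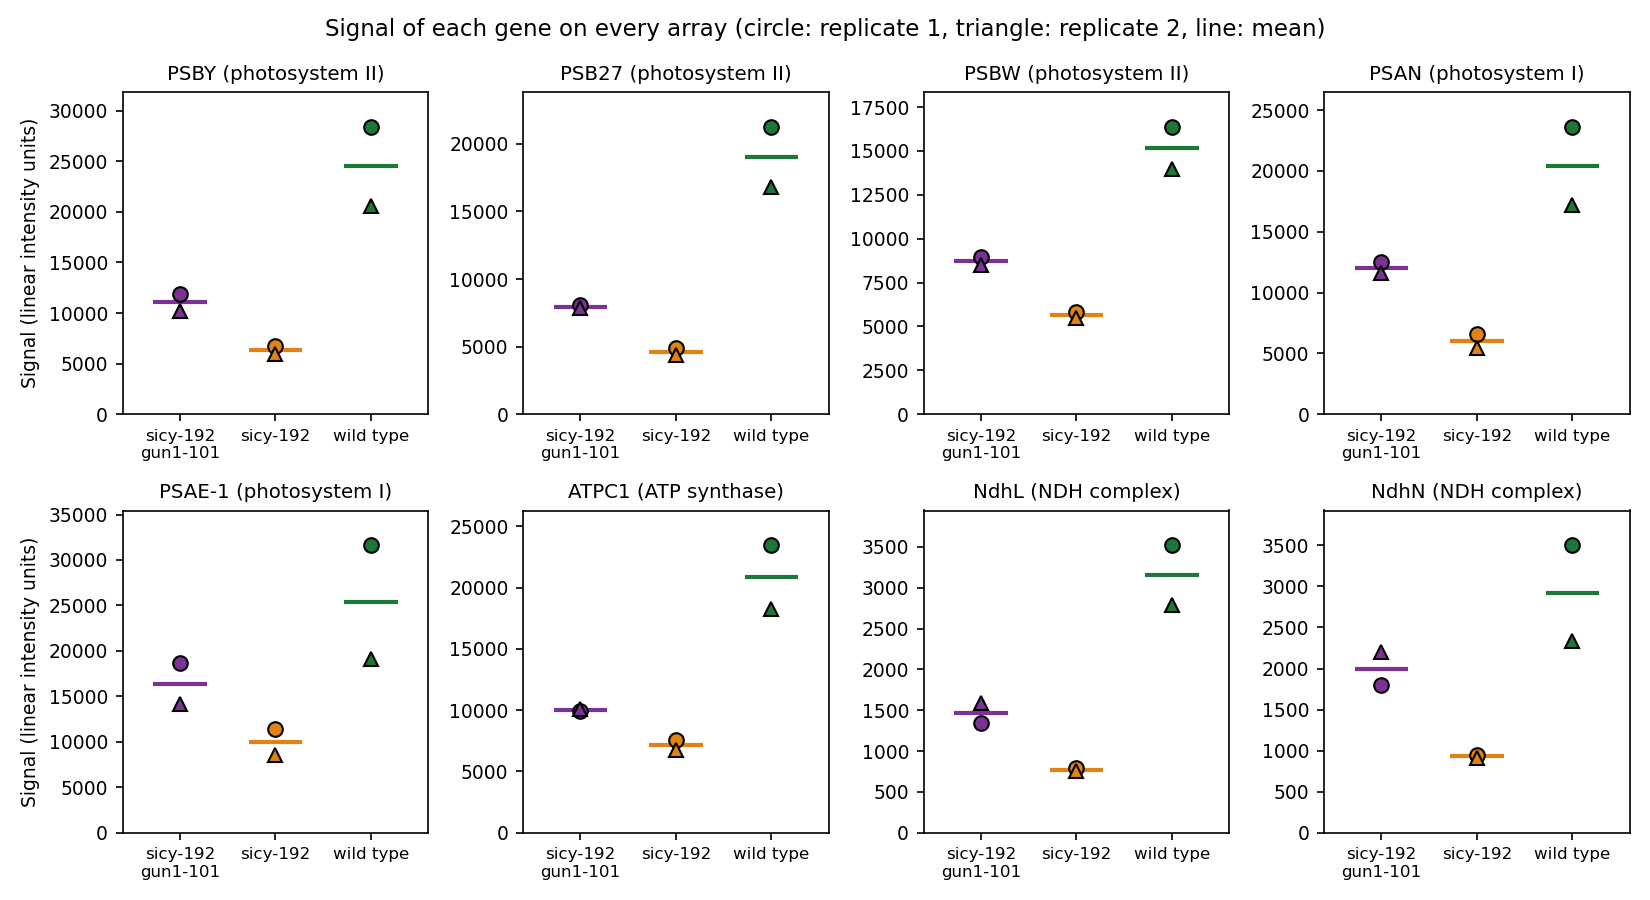
Signal (linear intensity units, axes from 0) of each gene on the 6 arrays, 1 panel a gene, with sicy-192 gun1-101 left, sicy-192 in the middle and wild type right; circles are replicate 1, triangles replicate 2 and lines the means of 2. In all 8 panels the sicy-192 gun1-101 arrays lie between the sicy-192 and the wild-type arrays, and for NdhN replicate 2 of sicy-192 gun1-101 (2201) is close to replicate 2 of wild type (2339).

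Among the photosystem II genes, PSBY (AT1G67740, chromosome 1) encodes a polyprotein that is processed into small membrane-spanning proteins of the complex. Its signal was 11918 and 10205 in sicy-192 gun1-101, 6725 and 5944 in sicy-192, and 28429 and 20625 in wild type. Both sicy-192 arrays were low, both double mutant arrays lay above them, and neither reached the lower wild-type array. The gene fell by 1.93 ± 0.19 (SE, log2) in sicy-192 against wild type (limma adjusted p = 0.000143) and retained 25.8% of the wild-type signal. It rose by 0.80 in sicy-192 gun1-101 against sicy-192 (adjusted p = 0.0152), to 45.1% of the wild-type signal, and was still 1.13 log2 units lower than wild type there (adjusted p = 0.00247). The rise missed the threshold without replicate 2 of sicy-192 (0.71, adjusted p = 0.0875), without replicate 1 of sicy-192 gun1-101 (0.69, adjusted p = 0.0893) and with no filter on dim probe sets (adjusted p = 0.0521).

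PSB27 (AT1G03600, chromosome 1) encodes a lumenal protein that takes part in the repair of photosystem II. It gave 8085 and 7839 in sicy-192 gun1-101, 4870 and 4392 in sicy-192, and 21280 and 16775 in wild type. The wild-type arrays stood well above the other 4, and the double mutant arrays differed from each other by only 0.04 on the log2 scale. Its change of -2.03 ± 0.16 in sicy-192 against wild type was the largest fall of the 8 genes, though within its error of the fall of NdhL (adjusted p = 6.55e-05), and left 24.3% of the wild-type signal. It was 0.78 higher in sicy-192 gun1-101 than in sicy-192 (adjusted p = 0.00871) and 1.25 lower in sicy-192 gun1-101 than in wild type (adjusted p = 0.000722), the largest remaining deficit of the 8. Without replicate 2 of sicy-192 the rise over sicy-192 was 0.71 and no longer passed the test (adjusted p = 0.0593).

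PSBW (AT2G30570, chromosome 2) encodes a small membrane protein that stabilises photosystem II supercomplexes. Signals were 8946 and 8522 in sicy-192 gun1-101, 5833 and 5493 in sicy-192, and 16392 and 13955 in wild type. The genotypes did not overlap, and the wild-type replicates were the closest of the 8 genes, with a log2 gap of 0.23. It fell by 1.42 ± 0.15 in sicy-192 against wild type (adjusted p = 0.000207). It rose by 0.62 in sicy-192 gun1-101 against sicy-192 (adjusted p = 0.0159) and stood 0.79 below wild type (adjusted p = 0.00436). With any 1 of the 4 compared arrays left out the rise stayed between 0.58 and 0.67 but missed the threshold, at an adjusted p of 0.0642 without replicate 1 and 0.0915 without replicate 2 of sicy-192, and 0.0811 without replicate 1 and 0.0632 without replicate 2 of sicy-192 gun1-101.

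Of the photosystem I genes, PSAN (AT5G64040, chromosome 5) encodes a lumenal subunit that helps plastocyanin dock. The signal was 12533 and 11575 in sicy-192 gun1-101, 6596 and 5446 in sicy-192, and 23652 and 17203 in wild type. The double mutant arrays lay clear of both other genotypes. PSAN fell by 1.75 ± 0.19 in sicy-192 against wild type (adjusted p = 0.000251) and rose by 1.0 in sicy-192 gun1-101 against sicy-192 (adjusted p = 0.00561). In sicy-192 gun1-101 it was 0.74 lower than in wild type (adjusted p = 0.0162). That last call was lost without replicate 1 of wild type (-0.51, adjusted p = 0.0993), without replicate 1 (-0.80, adjusted p = 0.0523) or replicate 2 (-0.69, adjusted p = 0.081) of sicy-192 gun1-101, with no filter (adjusted p = 0.0505) and after quantile normalization (-0.39, adjusted p = 0.054).

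PSAE-1 (AT4G28750, chromosome 4) encodes a stromal subunit at the ferredoxin docking side, and is one of a pair of PSAE genes. It gave 18664 and 14133 in sicy-192 gun1-101, 11392 and 8512 in sicy-192, and 31644 and 19079 in wild type. Replicate 1 was brighter in every genotype, and the wild-type gap of 0.73 on the log2 scale was the widest among the 8 genes. The fall of 1.32 ± 0.26 in sicy-192 against wild type passed the test (adjusted p = 0.00635). The differences of 0.72 between sicy-192 gun1-101 and sicy-192 (adjusted p = 0.0784) and of -0.60 between sicy-192 gun1-101 and wild type (adjusted p = 0.109) did not. With the replicate number as a block both passed (adjusted p = 0.000642 and 0.00178). Within replicate 1 and replicate 2 the difference from sicy-192 was 0.71 and 0.73, and that from wild type was -0.76 and -0.43. Leaving out an array of wild type brought the first of these past the threshold, at 0.0325 without replicate 1 and 0.0337 without replicate 2, and leaving out replicate 2 of wild type did so for the second (-0.96, adjusted p = 0.024).

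ATPC1 (AT4G04640, chromosome 4) encodes the redox-regulated gamma subunit of the chloroplast ATP synthase. Its signal was 9950 and 10102 in sicy-192 gun1-101, 7555 and 6776 in sicy-192, and 23480 and 18277 in wild type. The double mutant arrays were nearly equal and closer to sicy-192 than to wild type. ATPC1 fell by 1.53 ± 0.16 in sicy-192 against wild type (adjusted p = 0.000253) and by 1.05 in sicy-192 gun1-101 against wild type (adjusted p = 0.00197). The difference of 0.49 between sicy-192 gun1-101 and sicy-192 was the smallest of the 8 and missed the threshold (adjusted p = 0.0647), with a 95% interval of 0.12 to 0.85. Within replicate 1 it was 0.40 and within replicate 2 0.57, and with the replicate number as a block it passed (adjusted p = 0.00866). It also passed without replicate 1 (0.0471) or replicate 2 (0.0483) of wild type, after quantile normalization (0.0233) and with each array centred on its median (0.0227).

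NdhL (AT1G70760, chromosome 1) encodes a membrane-bound NDH subunit of the part of the complex where electrons enter. Signals were 1341 and 1584 in sicy-192 gun1-101, 788 and 758 in sicy-192, and 3522 and 2792 in wild type. All 3 genotypes were well separated. The gene fell by 2.0 ± 0.16 in sicy-192 against wild type (adjusted p = 6.95e-05), which left 24.5% of the wild-type signal. It rose by 0.90 in sicy-192 gun1-101 against sicy-192 (adjusted p = 0.00452) and remained 1.1 below wild type there (adjusted p = 0.00143).

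NdhN (AT5G58260, chromosome 5) encodes a subunit of the same part of the NDH complex. It gave 1795 and 2201 in sicy-192 gun1-101, 953 and 912 in sicy-192, and 3504 and 2339 in wild type. The sicy-192 arrays were low and close together, whereas the upper double mutant array came near the lower wild-type array. NdhN fell by 1.6 ± 0.20 in sicy-192 against wild type (adjusted p = 0.000555) and rose by 1.08 in sicy-192 gun1-101 against sicy-192, the largest rise of the 8 (adjusted p = 0.00541). The difference of -0.52 between sicy-192 gun1-101 and wild type did not pass the test (adjusted p = 0.0739). It was -0.96 within replicate 1 and -0.09 within replicate 2, and passed with the replicate number as a block (adjusted p = 0.0272), without replicate 2 of wild type (-0.81, adjusted p = 0.0138) and with each array centred on its median (-0.61, adjusted p = 0.0416).

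**Figure D2:**
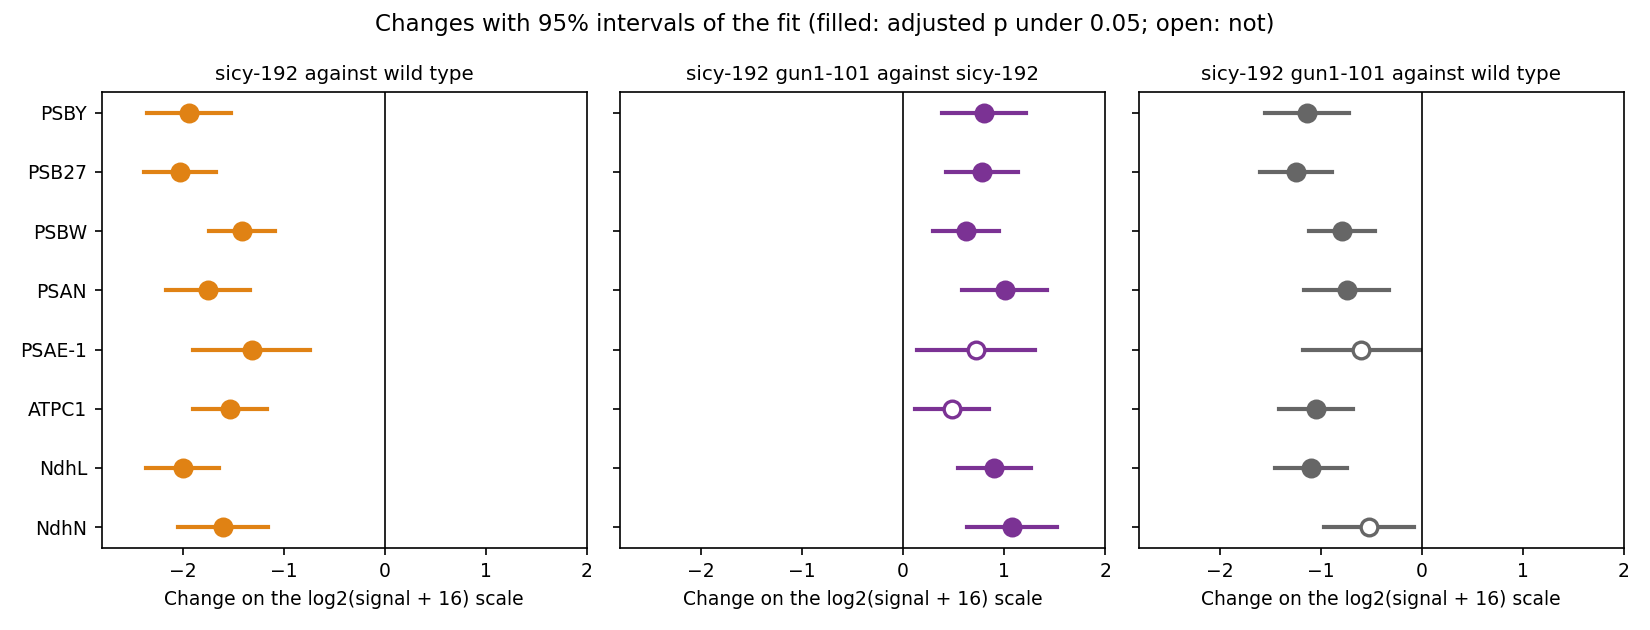
Change of each gene on the log2(signal + 16) scale (x axis) with the 95% interval of the fit, in sicy-192 against wild type (left), sicy-192 gun1-101 against sicy-192 (middle) and sicy-192 gun1-101 against wild type (right); filled points passed an adjusted p of 0.05. All 8 points are filled on the left and 6 of 8 in each of the other panels, with PSAE-1 open in both of these.

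The count of genes that rose in sicy-192 gun1-101 against sicy-192 depended on single arrays, and so did the calls over all probe sets. Without any 1 array of these genotypes, fewer of the 8 genes passed, and fewer probe sets were called over the whole array. Without either wild-type array both counts were higher. The 8 genes kept their direction in each of these fits, as they must when the arrays of the groups do not overlap. The count that fell in sicy-192 was 8 of 8 without any 1 of the 6 arrays. In all 8 genes replicate 1 of wild type was brighter than replicate 2, by 0.23 to 0.73 on the log2 scale, so the size of the fall varied with the wild-type array used.

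A gene's place in the distribution of signals on its own array does not depend on how the arrays were scaled. For PSBY, 0.717% and 0.774% of probe sets were brighter in sicy-192 gun1-101, 1.82% and 2.06% in sicy-192, and 0.145% and 0.189% in wild type. For NdhL the values were 11.6% and 9.89% in sicy-192 gun1-101, 19.4% and 20.1% in sicy-192, and 4.37% and 5.61% in wild type. By this measure the double mutant arrays lay above sicy-192 without overlap for 8 of 8 genes and below wild type for 7 of 8. The share of all probe sets apart by this measure was not calculated. On the signal scale it was 27.6% above sicy-192 and 28.9% below wild type. PSAE-1 was the exception, with 0.185% and 0.295% of probe sets brighter in sicy-192 gun1-101 and 0.0923% and 0.251% in wild type, so its absence of overlap with wild type held on the signal scale only.

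The share of the fall regained is the difference between sicy-192 gun1-101 and sicy-192 divided by that between wild type and sicy-192, on the log2(signal + 16) scale. Both differences use the sicy-192 arrays, so the share is a description and only its parts were tested. It had a median of 44.6% over the 8 genes. NdhN had the highest share, 67.4% (95% Fieller interval 43.2% to 94.4%), followed by PSAN with 57.5% (36.5% to 79.3%) and PSAE-1 with 54.7% (13.4% to 98.3%). NdhL regained 45.1% (29.1% to 60.8%), PSBW 44.1% (23.0% to 64.4%) and PSBY 41.4% (21.8% to 60.2%). The lowest shares were those of PSB27, at 38.6% (22.5% to 53.9%), and ATPC1, at 31.7% (8.68% to 52.5%). No interval reached 0% or 100%, and of the 28 pairs of genes 0 had intervals that lay apart, so the order of the shares was not resolved at this number of arrays.

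Replicates taken singly gave a wider picture. With the replicate 1 arrays alone the share was 48.5% for NdhN, 35.3% for NdhL and 24.3% for ATPC1, and with the replicate 2 arrays alone it was 93.5%, 56.3% and 40.2%. For all 8 genes the replicate 2 arrays gave the higher share. The replicates were least apart for PSBY, with 39.7% and 43.4%. On the linear signal scale the median share was 30.6%, and the genes ranged from 20.9% for ATPC1 to 53.6% for NdhN. The median share moved to 53.6% after quantile normalization.

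**Figure D3:**
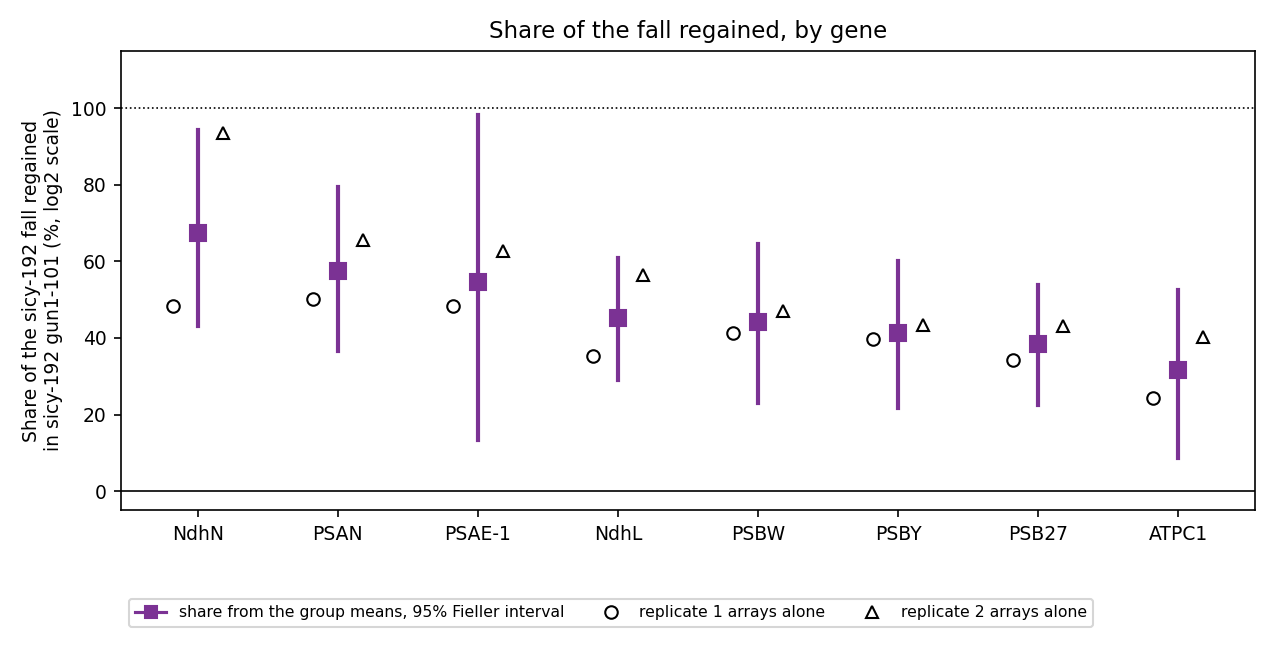
Share of the sicy-192 fall regained in sicy-192 gun1-101 (y axis, percent, log2 scale) for each gene, ordered from high to low; squares with bars give the share from the group means with its 95% Fieller interval, circles and triangles the replicate 1 and replicate 2 arrays alone. The bars overlap for all pairs of genes, and the replicates are farthest apart for NdhN (48.5% and 93.5%).

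Shares of a similar size were common among probe sets called lower in sicy-192. Over the 692 probe sets called lower by more than 1 on the log2 scale in sicy-192 against wild type, which include all 8 genes, the share had a median of 48.2% and quartiles of 27% and 72.8%. These probe sets were selected on the same sicy-192 and wild-type arrays that enter the share. The selection itself can shift the share, so these values are a description with no test. The 8 genes' median of 44.6% lies close to that background, and 70.8% of those probe sets had a share above that of ATPC1.

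Paralogues of 2 of the genes are named on the array. LPA19, a PSB27-like protein that acts in processing of the D1 precursor, was chosen after its values were seen. It had 551 and 667 in sicy-192 gun1-101, 636 and 577 in sicy-192, and 1111 and 1064 in wild type, so the 2 mutants overlapped and both lay below wild type. LPA19 fell by 0.83 in sicy-192 against wild type (adjusted p = 0.00481), and its change in sicy-192 gun1-101 against sicy-192 was 0.00 (adjusted p = 0.999, 95% interval -0.34 to 0.34). That interval lies below the 0.78 measured for PSB27, although the difference between these genes was not tested. ATPC2, the less used gamma subunit gene, had 195 ± 18.9 in sicy-192 gun1-101, 189 ± 8.64 in sicy-192 and 241 ± 19.6 in wild type (SD, n = 2 each), and passed the test in none of the comparisons (adjusted p = 0.221 in sicy-192 against wild type, 0.906 in sicy-192 gun1-101 against sicy-192 and 0.257 in sicy-192 gun1-101 against wild type).

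Of 89 nuclear genes listed for these complexes, the antenna, electron carriers and assembly, the gene table names 19, and 11 of these are not among the 8. In sicy-192 against wild type 9 of 11 fell and 0 rose (median -1.22), in sicy-192 gun1-101 against sicy-192 6 rose and 0 fell (0.67), and in sicy-192 gun1-101 against wild type 6 fell and 0 rose (-0.64). The 6 that rose became 3 without replicate 1 of sicy-192 gun1-101. NdhS, the ferredoxin-binding NDH subunit, had 2549 and 2335 in sicy-192 gun1-101, 944 and 718 in sicy-192, and 4794 and 3438 in wild type. It fell by 2.28 in sicy-192 against wild type (adjusted p = 9.12e-05) and rose by 1.55 in sicy-192 gun1-101 against sicy-192 (adjusted p = 0.00091), a share of 67.9% (51.4% to 85.8%). With NdhL and NdhN, all 3 named nuclear NDH genes changed in both of these comparisons.

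PETM, a small subunit of the cytochrome b6f complex, fell by 1.22 in sicy-192 against wild type (adjusted p = 0.00245) and rose by 0.67 in sicy-192 gun1-101 against sicy-192 (adjusted p = 0.0405). The rise of PETM missed the threshold without replicate 1 (0.78, adjusted p = 0.0845) or replicate 2 (0.57, adjusted p = 0.187) of sicy-192, without replicate 1 of sicy-192 gun1-101 (0.48, adjusted p = 0.208), with no filter (adjusted p = 0.12) and with no variance trend (adjusted p = 0.0664). HCF101, an iron-sulfur carrier needed for photosystem I, fell by 1.25 in sicy-192 against wild type (adjusted p = 0.000253) and was 0.28 higher in sicy-192 gun1-101 than in sicy-192 without passing the test (adjusted p = 0.173). PAM68, a photosystem II assembly factor, fell by 1.03 (adjusted p = 0.00112) and rose by 0.60 (adjusted p = 0.0173) in these comparisons. The rise of PAM68 missed the threshold without replicate 1 of sicy-192 (0.54, adjusted p = 0.0996) and without replicate 1 (0.67, adjusted p = 0.0555) or replicate 2 (0.53, adjusted p = 0.121) of sicy-192 gun1-101. The antenna genes LHCB4.1, LHCB4.2 and LHCB4.3 had shares of 54.8% (25.1% to 85.7%), 52.0% (32.7% to 71.4%) and 72.9% (61.4% to 85.1%). The rise of LHCB4.1 (0.77, adjusted p = 0.0278) missed the threshold with no filter (adjusted p = 0.0918). It was 0.61 without replicate 2 of sicy-192 and 0.56 without replicate 1 of sicy-192 gun1-101. The shares of PETM, PAM68 and HCF101 were 54.9%, 58.6% and 22.3%, and that of LPA19 was -0.03%.

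The plastid-encoded subunits of the same complexes were set beside the nuclear genes. Of 36 listed, 35 are named on the array and 33 were bright enough to be tested. In sicy-192 against wild type 20 of 33 fell and 0 rose (median -0.96), and in sicy-192 gun1-101 against sicy-192 28 fell and 0 rose (median -1.70), where 11.2% of tested probe sets were called lower. In sicy-192 gun1-101 against wild type 31 fell (median -2.74). The labels leave the reverse transcription primer unnamed, and how much plastid RNA, which has no long poly(A) tail, was copied depends on that primer. The 25S rRNA control, a transcript of the same sort, was higher in both sicy-192 gun1-101 arrays than in the other 4, and its part in the plastid values was not tested.

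In photosystem II, 10 of 14 tested plastid genes fell in sicy-192 against wild type (median -1.58) and 10 of 14 in sicy-192 gun1-101 against sicy-192 (median -1.28). These sets were not the same. The gene psbB passed the test only in the first comparison (-0.22, adjusted p = 0.626 in the second). By contrast, psbL passed the test only in the second (adjusted p = 0.022, against 0.083 in the first). The psbB signal was 36.1 and 40.3 in sicy-192 gun1-101, 47.3 and 46.8 in sicy-192, and 211 and 352 in wild type. Both double mutant arrays thus lay below both sicy-192 arrays. At such dim signals the offset understates changes, so whether psbB fell further in sicy-192 gun1-101 could not be decided. The antenna protein gene psbC, encoding CP43, had 174 and 210 in sicy-192 gun1-101, 850 and 536 in sicy-192, and 7600 and 5688 in wild type, a change of -1.74 in sicy-192 gun1-101 against sicy-192 (adjusted p = 0.0012). For photosystem I, 4 of 4 tested plastid genes fell in sicy-192 against wild type (median -1.72) and 3 of 4 in sicy-192 gun1-101 against sicy-192 (median -1.63). The reaction centre gene psaB had 1342 and 1027 in sicy-192 gun1-101, 8857 and 5473 in sicy-192, and 21945 and 15259 in wild type, and fell by 2.55 in sicy-192 gun1-101 against sicy-192 (adjusted p = 0.000372). PSAN, which rose in that comparison, and psaB, which fell, encode subunits of the same complex.

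For the ATP synthase, 0 of 6 plastid atp genes passed the test in sicy-192 against wild type with limma (median -0.36), where the nuclear ATPC1 fell. The count was 1 of 6, atpF, at an unadjusted p under 0.05. By adjusted p it was 0 or 1 of 6 under the other alternatives and 3 of 6 with the replicate number as a block, atpF (adjusted p = 0.0102) and atpH (0.0307) among them, so the count of 0 depended on the fit. All 6 fell in sicy-192 gun1-101 against sicy-192 (median -2.0). The beta subunit gene atpB had 5353 and 6232 in sicy-192 gun1-101, 28100 and 19590 in sicy-192, and 34851 and 26651 in wild type. Its sicy-192 arrays overlapped those of wild type (change -0.38, adjusted p = 0.228, and 0.09 after quantile normalization), and both double mutant arrays lay below all others (change against sicy-192 -2.02, adjusted p = 0.000424). For the NDH complex, 6 of 9 tested plastid genes fell in sicy-192 against wild type (median -0.88), which became 3 without replicate 1 of sicy-192 or without replicate 2 of wild type, and 9 of 9 in sicy-192 gun1-101 against sicy-192 (median -1.73). Among them ndhJ had 88.2 and 132 in sicy-192 gun1-101, 751 and 644 in sicy-192, and 2819 and 1856 in wild type.

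**Figure D4:**
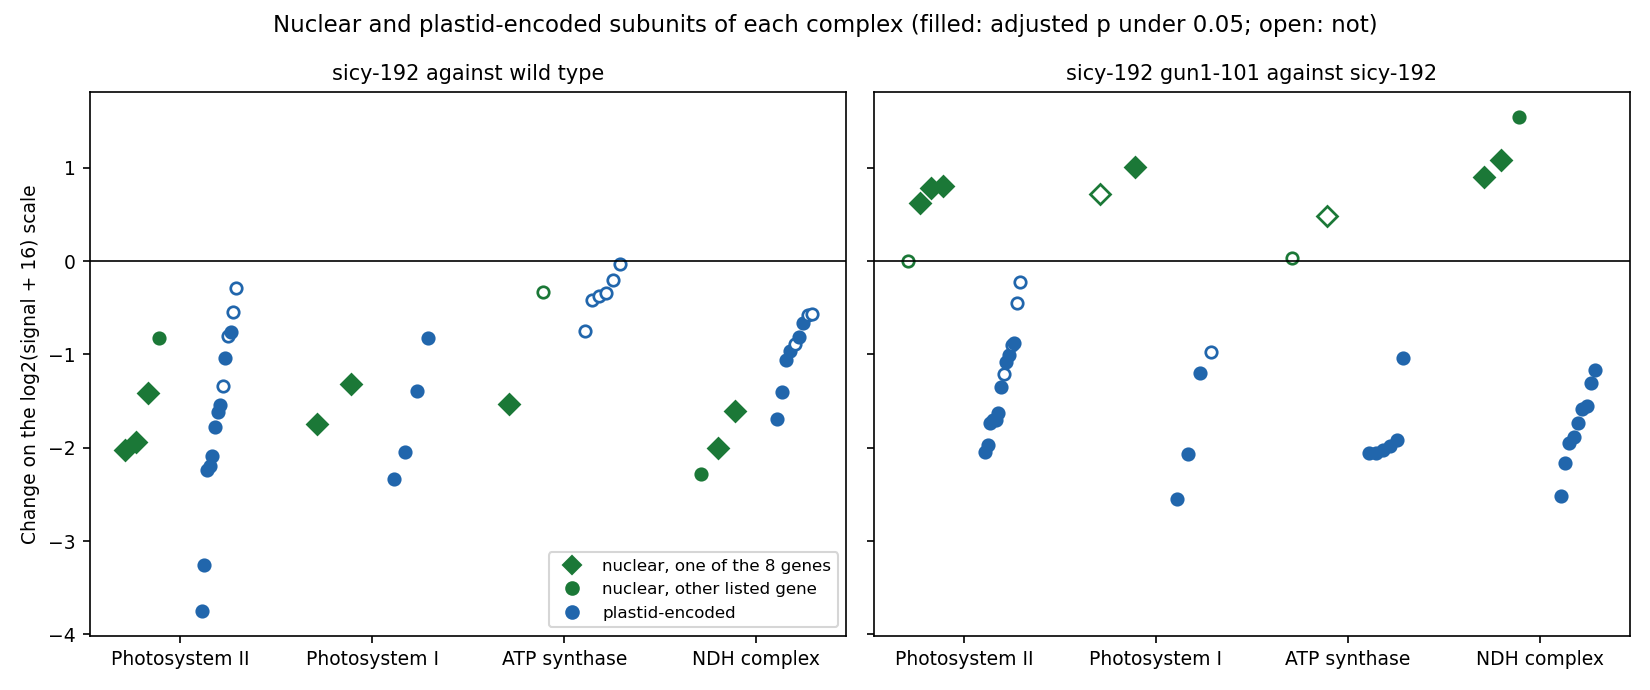
Change on the log2(signal + 16) scale (y axis) of nuclear genes (green, diamonds for the 8 genes, circles for other listed genes) and plastid-encoded genes (blue) of 4 complexes (x axis), in sicy-192 against wild type (left) and sicy-192 gun1-101 against sicy-192 (right); filled points passed an adjusted p of 0.05. On the right the 8 genes lie between 0.49 and 1.08 and the 33 plastid genes between -2.55 and -0.22.

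Among 8013 named genes, with the 8 left out, the 5 whose centred values over the 6 arrays lay nearest the mean profile of the 8 genes were AT3G53470, AT5G27290, AT5G40500, AT1G52220 and AT1G23205. Their root mean square distances on the log2 scale were 0.07, 0.09, 0.11, 0.11 and 0.12, and their correlations with that profile were at least 0.988 over 6 arrays. AT1G52220 is CURT1C, a protein of thylakoid membrane curvature, and the gene names of the others are not given in the annotation used. AT3G53470, the nearest, differed by -1.55 between sicy-192 and wild type and by 0.76 between sicy-192 gun1-101 and sicy-192, a share of 49.1%. The other 4 had differences of -1.78 to -1.54 and of 0.56 to 0.73, and shares of 36.6% to 40.9%. These genes were picked on the same 6 arrays for having this profile, so their values are a description with no test. On the same measure PSAN, at 0.09, was nearer than 3 of these 5 genes, and PSAE-1, with its wide replicate gaps, lay at 0.22. PSAN and PSAE-1 are themselves part of the mean profile, which shortens their distances, so they are not directly comparable with the 5 genes.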

How the data were processed

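Per the labels' protocols, total RNA was reverse-transcribed, transcribed in vitro with biotin and hybridised to Affymetrix arrays. The authors deposited linear signal intensities for each probe set. The submitters' processing notes name GCOS, and the algorithm is not given in the sources used here. The values show that arrays were brought to a common trimmed mean before deposit. Gene names came from the platform annotation, and a RefSeq locus was found for 13436 of the 13513 probe sets given 1 gene. Coordinates were left out because the sources name no genome build.

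Signals were rescaled per array (2% trimmed mean of 500), offset by 16 and put on the log2 scale, which understates changes of dim probe sets. limma 3.58.1 (R 4.3.3) fitted all 6 arrays together, using lmFit, then eBayes with a trend, on 14785 probe sets above the 35th percentile of mean log2 signal. There were 3 residual and 6.27 prior degrees of freedom. Tests were two-sided, p-values were adjusted by Benjamini-Hochberg over all probe sets tested, and a call needs an adjusted p under 0.05. All 8 genes passed the filter. With 2 arrays a genotype, their number limits the precision. The fit and the Fieller intervals were tested on simulated data. Genes named beside the 8 were, from each list, up to 3 with the largest change in sicy-192 against wild type, and the 5 nearest to the mean profile. Outside this rule, psbB and psbL were named for their calls, LPA19 as a paralogue and FAMA as a marker. The 8 genes, the lists and the tests were chosen with earlier results of these data known. The alternatives were offsets of 1 and 64, no filter, a 50th percentile filter, quantile normalization, unscaled deposited signals, median centring, no trend, fits of the compared arrays alone, a threshold of 0.10, the replicate number as a block, the mean of a gene's probe sets, the linear scale, and leaving out each array.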

Additional observations from a re-analysis of the deposited data

How the results depend on the processing

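All 8 genes kept the direction of change in all 3 comparisons under all 18 alternatives, but only the scalings could have reversed one. Filters, thresholds, the trend, the block and fits of the compared arrays alone leave the change itself as it was. The arrays of the groups did not overlap, so neither an offset nor leaving out 1 array could reverse a direction. Each gene had 1 probe set, so the mean of its probe sets was the same value. The count that fell in sicy-192 against wild type was 8 under each of them. The count that rose in sicy-192 gun1-101 against sicy-192 was 6 as reported, 5 with no filter, 8 with quantile normalization, median centring, only the compared arrays, or a threshold of 0.10, and 3 to 8 when single arrays were left out, 3 of them without replicate 2 of sicy-192, where fewer arrays enter the fit. The count that fell in sicy-192 gun1-101 against wild type was 6 as reported, 5 to 7 under scalings, filters and thresholds, and 5 to 8 when single arrays were left out. The median share regained was 44.6%, 44.3% to 53.6% over offsets and scalings, 40.6% to 48.6% when single arrays were left out, and 30.6% on the linear scale, which weighs the bright wild-type signals more by construction. Deviations of same-numbered arrays from their group means correlated at 0.374, 0.329 and 0.436, and the bioB spike and the actin 3' to 5' ratio divided the arrays by the same numbers, although no label names a shared batch. With the replicate number as a block, 8, 8 and 8 genes were called in the comparisons sicy-192 against wild type, sicy-192 gun1-101 against sicy-192 and sicy-192 gun1-101 against wild type, and calls over all probe sets were 5412, 4917 and 6362, against 3402, 3060 and 4450 without it. Those over all probe sets were 2043 to 2968, 1457 to 3262 and 2307 to 4322 when single arrays were left out. Directions reversed only for values that were not called. In sicy-192 against wild type, atpB was 0.093 after quantile normalization, and atpH ranged from -0.85 without replicate 1 of sicy-192 to 0.011 without replicate 2. PGRL1B in sicy-192 gun1-101 against wild type ranged from -0.61 without replicate 2 of wild type to 0.14 without replicate 1. ATPC2 in sicy-192 gun1-101 against sicy-192 was -0.0039 without replicate 2 of sicy-192 and ranged from -0.053 without replicate 1 of sicy-192 gun1-101 to 0.13 without replicate 2. The cause of these reversals was not tested.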

Other observations

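Among listed genes not described above, PGRL1B, which acts in cyclic electron flow around photosystem I, had 850 ± 134 in sicy-192 gun1-101, 528 ± 102 in sicy-192 and 1031 ± 378 in wild type (SD, n = 2 each). It fell by 0.91 in sicy-192 against wild type (limma adjusted p = 0.0289), a call lost without replicate 1 of wild type (-0.53, adjusted p = 0.147), without replicate 2 of sicy-192 (-0.72, adjusted p = 0.139), with no filter (0.0675) and with no variance trend (0.0544). In the same comparison LPA1, a photosystem II assembly factor, had a difference of -0.65 that did not pass the test (adjusted p = 0.0695, and 0.00322 with the replicate number as a block). The plastid gene psbH, encoding a small photosystem II phosphoprotein, had 70.7 ± 2.70 in sicy-192 gun1-101, 158 ± 6.37 in sicy-192 and 2328 ± 229 in wild type, the largest fall in sicy-192 among the 33 plastid genes tested (-3.75, adjusted p = 1.21e-05).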
